A study of Homo sapiens with 3 samples.

Results

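Potassium channel genes were taken as all gene symbols beginning with KCN, without KCNJ11 and without antisense or intronic transcripts. Of 116 such symbols 19 were left out, and 97 of the 36601 genes in the count tables remained. They were followed in islets differentiated from the human embryonic stem cell line HUES8. Dissociated islet cells had been put through a magnetic positive selection with an antibody to CD49a, the alpha-1 integrin subunit. The cells that were retained (positive library), those that were not (negative library) and cells that skipped the sort (unsorted library) were reaggregated for 7 days, dispersed with TrypLE and run on a droplet platform that counts unique molecular identifiers (UMIs). All 3 libraries share the line and the differentiation protocol, and each sorting state is 1 library.

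Potassium channels let potassium ions leave or enter the cell and thereby set the resting membrane potential and end action potentials. Voltage-gated channels open on depolarisation, inward rectifiers pass current best near rest, two-pore channels carry background current, and calcium-activated channels couple the membrane to calcium entry. In islet endocrine cells these currents shape the electrical activity that drives calcium entry and hormone release.

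The libraries held 88397368 to 127119509 UMIs, and 6626 cells passed a minimum of 1000 genes and a maximum of 20% mitochondrial UMIs. The pairs of libraries shared 2 to 6 cell barcodes. Cells were put into 4 classes by single-gene limits in UMIs scaled to the same total for each cell (CPM): INS, insulin, at 30000, GCG, glucagon, at 10000, SST, somatostatin, at 10000, and TPH1, the serotonin-synthesis enzyme of enterochromaffin cells, at 200. This gave 2344 INS-rich, 1151 GCG-rich, 212 SST-rich and 877 TPH1-rich cells. Another 1046 cells passed several limits, 996 passed none, and both kinds were left out. Each class is a range of 1 gene: 289, 58, 20 and 139 cells in that order lay within 1.5-fold of the limit. Of the delta-cell markers other than SST, HHEX averaged 144.8 CPM and LEPR 64.2 in SST-rich sums, but RBP4 was lower there (66.5) than in INS-rich sums (104.2), and BCHE stood at 5.84 CPM. SLC18A1, a monoamine transporter, averaged 128 CPM in TPH1-rich sums. The 6 alpha-cell markers together, GCG included, held 104300 to 121700 CPM in GCG-rich, 14150 to 17000 in INS-rich, 15410 to 26020 in SST-rich and 5267 to 7981 in TPH1-rich sums. Among beta-cell markers IAPP averaged 2285 CPM, ACVR1C 835.8, HADH 178.4 and PDX1 93.55 in INS-rich sums, above the other classes. NKX6-1 averaged 127.4 CPM in INS-rich and 116.0 in TPH1-rich sums. ISL1 averaged 360.2 CPM in INS-rich sums, below the 449.4 of SST-rich sums. MAFA, a factor of mature beta cells, was at 0.815 to 2.17 CPM in INS-rich sums. SST-rich sums also held GHRL, ghrelin, at 73.1 to 212.8 CPM. Summed acinar, mesenchymal, endothelial and liver or gut markers stayed at 0 to 7.38 CPM in every class. Neural markers held 518.9 to 1301 CPM over the classes, highest in a TPH1-rich sum. Progenitor markers held 115.4 to 246.1 CPM, duct markers 32.7 to 122.7, mostly KRT19, and proliferation markers 0 to 86.6. Their part in the class differences was not tested.

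Members were measured as UMIs summed over the cells of a class within a library, 12 sums in all, and given as CPM of the sum. Where 3 levels are listed for a class, they stand in the order positive, negative, unsorted. Of the 97 members, 41 averaged at least 5 CPM over these sums and were tested, which is 42.3% of members against 33.7% of all genes. Another 19 averaged 1 to 5 CPM and 37 less than 1 CPM. Among the latter, 5 had no UMI in any kept cell (KCNA6, KCNG4, KCNJ1, KCNJ18, KCNK18) and 11 had 1 to 9 UMIs in all. Tested members comprised 21 of 40 voltage-gated pore subunits, 5 of 15 inward rectifiers, 6 of 15 two-pore channels, 4 of 8 calcium- or sodium-activated channels and 5 of 17 accessory subunits. Neither KCNRG nor KCNQ1DN, which name no channel subunit, was tested. Just inside the minimum lay KCNA4 at 5.75 CPM and KCNQ5 at 5.91, and just outside lay KCNA5 at 4.88, KCNAB2 at 4.81 and KCNAB1 at 4.77. KCNQ1, a voltage-gated subunit tied to diabetes risk, averaged 0.805 CPM. KCNJ12 and KCNJ18, and KCNE1 and KCNE1B, are near-identical pairs, so that their counts, all low, are uncertain. UMI levels were not compared between genes, since longer genes give more counts.

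Class differences were wide among these genes. Each class was compared with the mean of the other 3 by edgeR's quasi-likelihood test with the library as a block. A gene was called at a Benjamini-Hochberg adjusted p under 0.05 over all 12336 genes tested and a difference of at least 2-fold. In TPH1-rich cells 15 of 41 members were called (11 higher, 4 lower), against 7.97% of all genes (4.29% higher, 3.68% lower). In GCG-rich cells 14 were called (4 higher, 10 lower), against 6.79% of all genes (2.77% higher, 4.01% lower). In INS-rich cells 12 were called (4 higher, 8 lower), against 4.88% of all genes (2.34% higher, 2.54% lower). In SST-rich cells 3 were called (2 higher, 1 lower), against 3.33% of all genes (2.09% higher, 1.24% lower). The median log2 difference of the 41 members was 0.17 in TPH1-rich, -0.38 in GCG-rich, 0.09 in INS-rich and -0.09 in SST-rich cells, and that of all genes lay within -0.01 and 0.01. Altogether 21 members (51.2%) were called in at least 1 contrast, against 12.6% of all genes. The 4 contrasts use the same 12 sums, so they are not separate evidence, and the p-values measure only the spread between these 3 libraries. A gene high in 1 class raises the mean that the other 3 are set against, so a lower call can mirror a higher one. The minimum of 5 CPM also bears on some calls. Outside TPH1-rich cells KCNA4, KCNIP1, KCNN2 and KCNQ5 averaged under 5 CPM, and so did KCNJ8 outside SST-rich cells. These members were tested only because of the class where they were high. All genes passed the same filter.

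**Figure D1:**
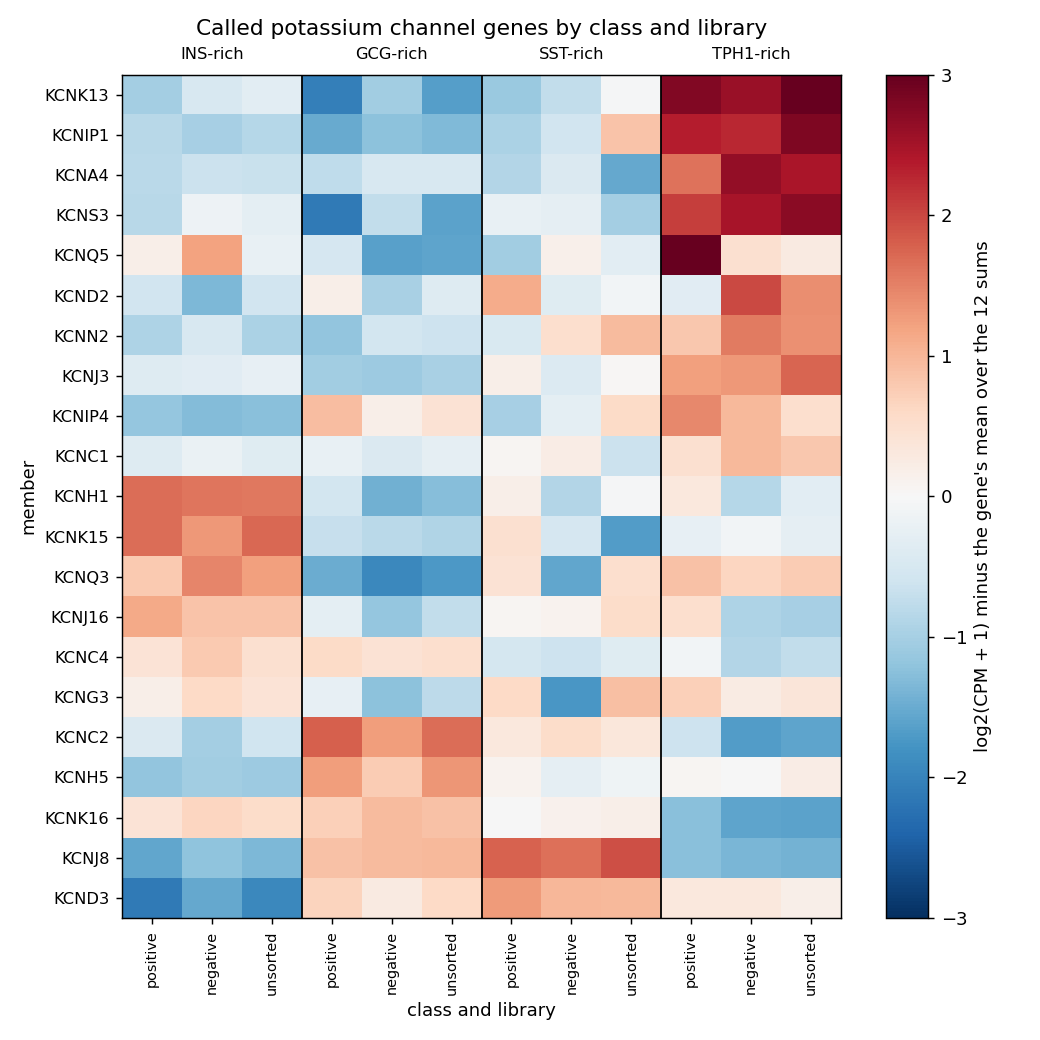
Levels of the 21 called members in the 12 sums, as log2(CPM + 1) minus the gene's mean over the sums (red, above; blue, below; the scale ends at 3 either way). Columns are the 3 libraries within each class; KCNK13, KCNIP1, KCNA4 and KCNS3 are red in all 3 TPH1-rich columns, and KCNQ5 is dark red in the positive one.

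To show the regulatory sequence at genes of different patterns, the stretch from 250 to 51 bases before the RefSeq start is printed for 6 of the named members, 5′ to 3′ on the gene's strand (GRCh38.p14), with CG dinucleotides in capitals. The first 3 genes were higher in TPH1-rich cells, KCNH1 in INS-rich, KCNC2 in GCG-rich and KCND3 in SST-rich cells. They lie at chr5:170353237-170353436 (plus strand), chr11:30017081-30017280 (minus), chr2:17877597-17877796 (plus), chr1:211134199-211134398 (minus), chr12:75209890-75210089 (minus) and chr1:111989225-111989424 (minus).
KCNIP1: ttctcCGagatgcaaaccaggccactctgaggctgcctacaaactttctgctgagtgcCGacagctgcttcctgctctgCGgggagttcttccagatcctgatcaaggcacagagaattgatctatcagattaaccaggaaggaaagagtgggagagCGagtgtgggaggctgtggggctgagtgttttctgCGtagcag
KCNA4: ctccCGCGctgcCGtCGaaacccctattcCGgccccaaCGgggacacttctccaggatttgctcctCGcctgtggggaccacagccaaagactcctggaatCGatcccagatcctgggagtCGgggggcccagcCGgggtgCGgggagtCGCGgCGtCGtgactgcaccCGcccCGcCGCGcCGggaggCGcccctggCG
KCNS3: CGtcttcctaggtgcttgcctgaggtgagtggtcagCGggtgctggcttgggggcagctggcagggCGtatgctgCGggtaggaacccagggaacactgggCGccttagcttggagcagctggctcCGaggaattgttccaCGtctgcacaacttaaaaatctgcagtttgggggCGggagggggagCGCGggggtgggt
KCNH1: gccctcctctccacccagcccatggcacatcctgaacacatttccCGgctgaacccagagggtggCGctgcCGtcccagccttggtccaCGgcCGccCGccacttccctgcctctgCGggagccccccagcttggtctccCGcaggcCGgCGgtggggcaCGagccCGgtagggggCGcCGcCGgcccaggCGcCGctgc
KCNC2: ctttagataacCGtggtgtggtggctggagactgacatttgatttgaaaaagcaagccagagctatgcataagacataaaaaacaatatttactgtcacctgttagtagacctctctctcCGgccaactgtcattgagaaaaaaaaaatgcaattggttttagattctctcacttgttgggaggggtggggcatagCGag
KCND3: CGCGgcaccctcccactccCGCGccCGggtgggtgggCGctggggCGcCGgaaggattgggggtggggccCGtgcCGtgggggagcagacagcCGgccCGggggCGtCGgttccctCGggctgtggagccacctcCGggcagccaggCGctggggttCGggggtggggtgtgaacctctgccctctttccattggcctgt

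The windows differed in base composition, also among genes of the same pattern. KCNA4 held 22 CG dinucleotides at 71.5% G and C, KCNS3 10 at 63% and KCNIP1 5 at 53.5%, all 3 of them higher in TPH1-rich cells. KCND3 held 18, KCNH1 17 and KCNC2 3. Over 35116 RefSeq windows of the same length the median was 8 (quartiles 2 and 17), and over 111 windows of 73 members it was 9. Of 6 motifs searched on both strands, the ETS core CCGGAA lay in the windows of KCNA4 and KCND3, and in 10.0% of all windows and 7.21% of member windows. The shares among all and member windows were 7.63% and 7.21% for the TATA box TATAAA, 10.1% and 12.6% for the E-box CAGATG, and 2.35% and 1.8% for the forkhead motif TGTTTAC. The homeodomain motif TAATTA lay in 3.74% of all windows and the cyclic AMP response element TGACGTCA in 0.951%, and neither in a member window. A match is a string of letters and does not show binding. The windows end 51 bases before the start, so a TATA box nearer the start was not searched. The TATAAA shares therefore cannot show which promoters have one.

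Among voltage-gated subunits, KCNA4 and KCNS3 were high in TPH1-rich cells. KCNA4 encodes a rapidly inactivating, A-type channel, and in TPH1-rich cells it stood at 11.4, 23.8 and 20.9 CPM. In the 9 sums of the other classes it lay between 0.37 and 1.98 CPM, so the groups did not overlap. KCNA4 passed the 5 CPM minimum only through its TPH1-rich sums, so the lack of overlap is not separate support. The log2 difference was 3.59 ± 0.17 (SE), edgeR adjusted p = 1.2e-09. KCNS3 encodes a subunit that forms no channel alone but joins and alters other voltage-gated channels. It stood at 89.7, 118 and 140 CPM in TPH1-rich cells and between 3.91 and 18.3 CPM elsewhere. That log2 difference was 3.21 ± 0.15 (edgeR adjusted p = 1.3e-09). KCNS3 was also lower in GCG-rich cells, by -1.91 ± 0.20 on the log2 scale. Where KCNA4 was called lower, in SST-rich cells (log2 -1.64 ± 0.39, edgeR adjusted p = 0.0099), the 3 sums rested on 2, 7 and 1 UMIs, and the adjusted p was 0.16 without the unsorted library and 0.45 with the limits 2 times as high. In INS-rich cells KCNA4 was called lower by -1.04 ± 0.25, a call that was lost without the negative library (-0.75, adjusted p = 0.16), with each cell thinned to 10000 UMIs (adjusted p = 0.33) and with no filter on low genes (-0.99). Its INS-rich levels, 1.27 to 1.55 CPM, lay within the range of the GCG- and SST-rich sums.

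KCNB2, a delayed rectifier, stood at 1541, 853.1 and 1193 CPM in TPH1-rich cells and at 910.8 to 939.2 CPM in INS-rich cells. Its TPH1-rich levels lay on both sides of the INS-rich ones, and it was not called in a contrast.

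The EAG channels KCNH1 and KCNH5, close relatives that open on depolarisation without inactivating, were high in different classes. KCNH1 stood at 67.0, 63.1 and 62.5 CPM in INS-rich cells. Elsewhere it ranged from 6.73 to 25.3 CPM, with no overlap. The log2 difference was 2.36 ± 0.13 (edgeR adjusted p = 1.7e-08), and KCNH1 was called lower in GCG-rich cells (-1.48 ± 0.17). KCNH5 stood at 122, 87.8 and 130 CPM in GCG-rich cells, at 42.1 to 60.0 CPM in SST- and TPH1-rich cells and at 22 to 24.2 CPM in INS-rich cells. It was thus ordered the same way in all 3 libraries at its ends: highest in GCG-rich cells (1.59 ± 0.08, edgeR adjusted p = 5.6e-09) and lowest in INS-rich cells (-1.44 ± 0.10, adjusted p = 7.9e-08). The related genes KCNH2, KCNH6, KCNH7 and KCNH8 were not called in any contrast, and KCNH3 and KCNH4 averaged under 5 CPM.

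KCNC2 encodes a fast-gating channel of rapidly firing neurons. In GCG-rich cells it stood at 75, 51 and 69.6 CPM, in SST-rich cells at 26.5, 31.3 and 26.6, in INS-rich cells at 9.75 to 15.2 and in TPH1-rich cells at 5.83 to 13.3. GCG-rich cells lay above every other sum and SST-rich cells above both remaining classes. Without the 5 highest cells of each sum the SST-rich levels of KCNC2 were 14.1, 21.3 and 8.81 CPM. The unsorted SST-rich level was then below the INS-rich level of that library, so the ranges of SST- and INS-rich cells overlapped. GCG-rich cells stayed above every other sum, at 67.3, 47.3 and 64.7 CPM. The gene was higher in GCG-rich cells (2.26 ± 0.11, edgeR adjusted p = 4.4e-09) and lower in TPH1-rich cells (-2.09 ± 0.17, adjusted p = 1.9e-07). KCNC4, of the same subfamily, was lower in TPH1-rich cells at 8.21, 4.36 and 4.89 CPM (-1.08 ± 0.18), with SST-rich sums of 5.36 to 6.65 CPM in the same range. KCNC1 was higher there, at 14.8, 21.5 and 19.0 CPM, just past the limit (1.01 ± 0.13); under 4 alternatives it was 0.90 to 0.999.

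KCND3 and KCND2 encode the A-type channels that KCNIP proteins bind. KCND3 stood at 2.48, 4.25 and 2.95 CPM in INS-rich cells and at 16.1 to 35.7 CPM in all other sums. It was lower in INS-rich cells by -2.82 ± 0.15 (edgeR adjusted p = 1.4e-08) and higher in SST-rich cells by 1.56 ± 0.16 (adjusted p = 1.5e-05), where it stood at 35.7, 29.1 and 28.5 CPM. In the positive library 5 SST-rich cells held 66.1% of its UMIs. Without the 5 highest cells of each sum the SST-rich levels were 14.2, 21.4 and 20.4 CPM, against 19.4, 15.7 and 20.1 in GCG-rich cells. KCND2 varied between libraries: in TPH1-rich cells it stood at 6.32 CPM in the positive library, within the range of the other classes, and at 35.7 and 23.4 CPM in the negative and unsorted ones. It was called higher in TPH1-rich cells (1.83 ± 0.35, edgeR adjusted p = 0.00075), with that direction in 2 of 3 libraries, and lower in INS-rich cells (-1.20 ± 0.39), a call that 5 alternatives did not keep, among them DESeq2 (adjusted p = 0.074) and leaving out the unsorted library (edgeR adjusted p = 0.077). KCND1 was not called.

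KCNQ3 and KCNQ5 contribute to the M-current, a slow potassium current that restrains repetitive firing. KCNQ3 stood at 12.8, 21.0 and 17.6 CPM in INS-rich cells and at 13.6, 11.4 and 12.6 in TPH1-rich cells. In GCG-rich cells it stood at 1.85, 1.08 and 1.40 CPM, below the TPH1- and INS-rich sums throughout (GCG-rich log2 difference -2.95 ± 0.33, edgeR adjusted p = 8.5e-06). SST-rich sums were scattered, at 9.79, 1.69 and 10.3 CPM. It was called higher in INS-rich (1.91 ± 0.22) and TPH1-rich cells (1.08 ± 0.26; 0.46 with the limits 2 times as high), where 5 cells of the positive library held 83.7% of its UMIs. KCNQ5 was called higher in TPH1-rich (2.05 ± 0.53) and lower in GCG-rich cells (-2.58 ± 0.73), but these values rested on very few cells. In TPH1-rich cells of the positive library its 109 UMIs lay in 8 of 86 cells, and 5 cells held 97.2% of them. Without the 5 highest cells of each sum its TPH1-rich levels were 1.04, 2.06 and 1.25 CPM, against 2.23, 0.472 and 0.8 in INS-rich cells. KCNG3, another silent subunit, was called lower in GCG-rich cells (5.04, 2.02 and 3.13 CPM; -1.25 ± 0.33). SST-rich sums, at 9.79, 1.13 and 12.2 CPM, reached below them, and the call was lost with clusters (-0.34, adjusted p = 0.22) and without the unsorted library (-1.01, adjusted p = 0.11).

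**Figure D2:**
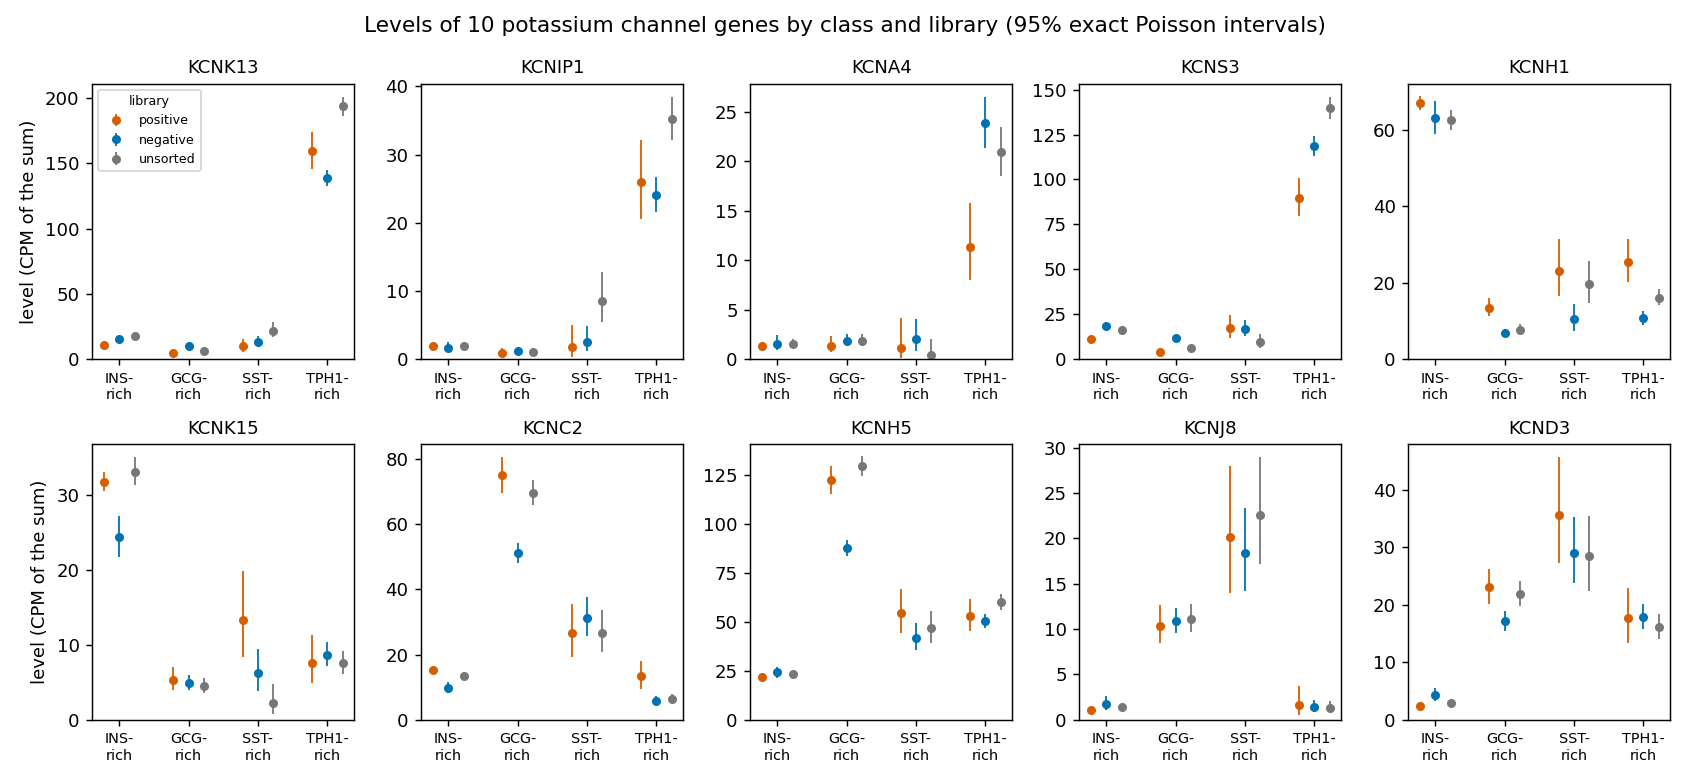
CPM of 10 members (vertical axes, each from 0) by class (horizontal axes) and library (colours), with 95% exact Poisson intervals for counting error only. KCNK13 reaches 139 to 194 CPM in TPH1-rich cells and at most 21.8 elsewhere, and KCNJ8 is highest in SST-rich and next in GCG-rich cells.

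Among inward rectifiers KCNJ8 was called in all 4 contrasts. It encodes a pore of ATP-sensitive channels that works with the sulfonylurea receptor ABCC9. KCNJ8 stood at 20.2, 18.4 and 22.5 CPM in SST-rich cells and at 10.4, 10.9 and 11.1 in GCG-rich cells. In INS- and TPH1-rich cells it stood between 1.11 and 1.70 CPM, so the 3 levels did not overlap. Its SST-rich sums carried it past the 5 CPM minimum, so the lack of overlap is not separate support. Without the 5 highest cells of each sum SST-rich levels were 10.2, 13.4 and 17.3 CPM. The GCG-rich levels were then 8.73, 10.2 and 10.3 CPM, so these 2 classes overlapped. KCNJ8 was higher in SST-rich (2.86 ± 0.15, edgeR adjusted p = 2.7e-08) and GCG-rich cells (1.76 ± 0.12, adjusted p = 8.9e-08), and lower in INS-rich (-2.21 ± 0.16) and TPH1-rich cells (-2.40 ± 0.19). When clusters replaced the single-gene limits, the INS-rich difference was -0.96, just under 2-fold.

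ABCC9 itself, which lies 21.8 kb from KCNJ8 on chromosome 12, was likewise highest in SST-rich and next in GCG-rich cells. It stood at 31.7, 32.5 and 34.0 CPM in SST-rich cells, 12.7, 8.39 and 10.6 in GCG-rich cells, 4.42, 1.20 and 2.12 in TPH1-rich cells and 1.47, 2.17 and 0.738 in INS-rich cells. It was called in all 4 contrasts, at 3.42 ± 0.24 in SST-rich, 1.29 ± 0.21 in GCG-rich, -1.99 ± 0.31 in TPH1-rich and -2.72 ± 0.27 in INS-rich cells. ABCC8, the sulfonylurea receptor of beta cells, stood at 184.3 to 360.9 CPM over the 12 sums and was not called.

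KCNJ3 encodes a channel opened by G proteins. It stood at 453.7, 473.1 and 644.1 CPM in TPH1-rich cells against 90.2 to 217.1 CPM elsewhere (1.80 ± 0.09, edgeR adjusted p = 2.1e-09), and was called lower in GCG-rich cells (-1.32 ± 0.11; -0.93 with clusters). KCNJ6, whose product can pair with that of KCNJ3, was not called and stood at 263.1 to 451.4 CPM. KCNJ16 stood at 30.2, 24.8 and 24.8 CPM in INS-rich cells against 5.39 to 19.96 CPM elsewhere (1.45 ± 0.16, edgeR adjusted p = 9.1e-06). Its neighbour KCNJ2, 33.1 kb away on chromosome 17, was not called and stood at 16.4 to 19.9 CPM in INS-rich cells.

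Among two-pore channels KCNK13 was high in TPH1-rich cells. It encodes a halothane-inhibited background channel and spans chr14:90061765-90185857 (plus strand, GENCODE 29 on GRCh38). In TPH1-rich cells it stood at 159, 139 and 194 CPM. In the other classes it lay between 4.63 and 21.8 CPM. The log2 difference was 3.70 ± 0.15 (edgeR adjusted p = 3.5e-10), and its UMIs were spread over 61 of 86, 327 of 399 and 338 of 392 TPH1-rich cells. In INS-rich cells, which were deeper, 265 of 1413, 63 of 305 and 166 of 626 cells held a UMI. The median depths in the positive library were 29742 UMIs for TPH1-rich and 52365 for INS-rich cells. KCNK13 was also called lower in GCG-rich cells (-2.09 ± 0.20), a call that was lost when clusters replaced the limits (-0.27, adjusted p = 0.23).

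KCNK15, which encodes a two-pore subunit not known to pass current alone, was high in INS-rich cells. It stood there at 31.7, 24.4 and 33.1 CPM, against 2.22 to 13.2 CPM elsewhere (2.31 ± 0.15, edgeR adjusted p = 8.4e-08), and was called lower in GCG-rich cells (-1.19 ± 0.21), a call that was lost with clusters (-0.14, adjusted p = 0.33), with the limits 2 times as high (-0.88) and with cells above several limits kept (-0.70). KCNK16 encodes a pancreatic, alkaline-activated channel that limits calcium entry in beta cells. It was low in TPH1-rich cells, at 54.4, 43.4 and 42.6 CPM against 131.3 to 254.1 CPM in the other sums (-2.14 ± 0.10, edgeR adjusted p = 1.4e-09). GCG-rich cells held 215.4, 254.1 and 244.4 CPM, above the 175.3 to 205.9 CPM of INS-rich cells (GCG-rich log2 difference 1.22 ± 0.08). KCNK17, which lies 0.144 kb from KCNK16 on chromosome 6, stood at 49.6 to 53.1 CPM in TPH1-rich and 57.4 to 60.0 CPM in INS-rich cells and was not called. KCNK1 and KCNK3 were not called either.

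Of the calcium- or sodium-activated channels, KCNN2 was called. This small-conductance channel stood at 8.21, 14.6 and 12.6 CPM in TPH1-rich cells and at 1.34 to 2.79 CPM in INS- and GCG-rich cells, with SST-rich cells at 2.88, 6.49 and 9.24 CPM, the last within the TPH1-rich range. It was higher in TPH1-rich cells (1.83 ± 0.17) and lower in INS-rich (-1.27 ± 0.19) and GCG-rich cells (-1.25 ± 0.20; -0.73 with clusters). KCNMA1, the large-conductance pore, KCNN3 and KCNT2 were not called. The levels of KCNMA1 were 360.6 to 738.4 CPM over the 12 sums.

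Among accessory subunits KCNIP genes were called and the tested KCNMB genes were not. KCNIP1, a calcium-binding partner of KCND channels, stood at 25.9, 24.0 and 35.2 CPM in TPH1-rich cells and at 0.823 to 8.5 CPM elsewhere (3.65 ± 0.17, edgeR adjusted p = 1.3e-09). It was called lower in GCG-rich (-2.43 ± 0.27) and INS-rich cells (-1.37 ± 0.23). Its INS-rich levels, 1.62 to 1.95 CPM, lay above the GCG-rich ones of 0.823 to 1.21 CPM. KCNMB1, which overlaps KCNIP1, had 4 UMIs in all kept cells. KCNIP4, of the same group, stood at 12.4 to 13.7 CPM in INS-rich cells and at 15.5 to 89.7 CPM elsewhere. It was lower in INS-rich (-1.73 ± 0.21) and higher in TPH1-rich cells (1.15 ± 0.19), where the GCG-rich range of 36.4 to 62.0 CPM overlapped the TPH1-rich range of 46.2 to 89.7. KCNMB2, KCNMB3 and KCNMB4, partners of KCNMA1, were not called.

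**Figure D3:**
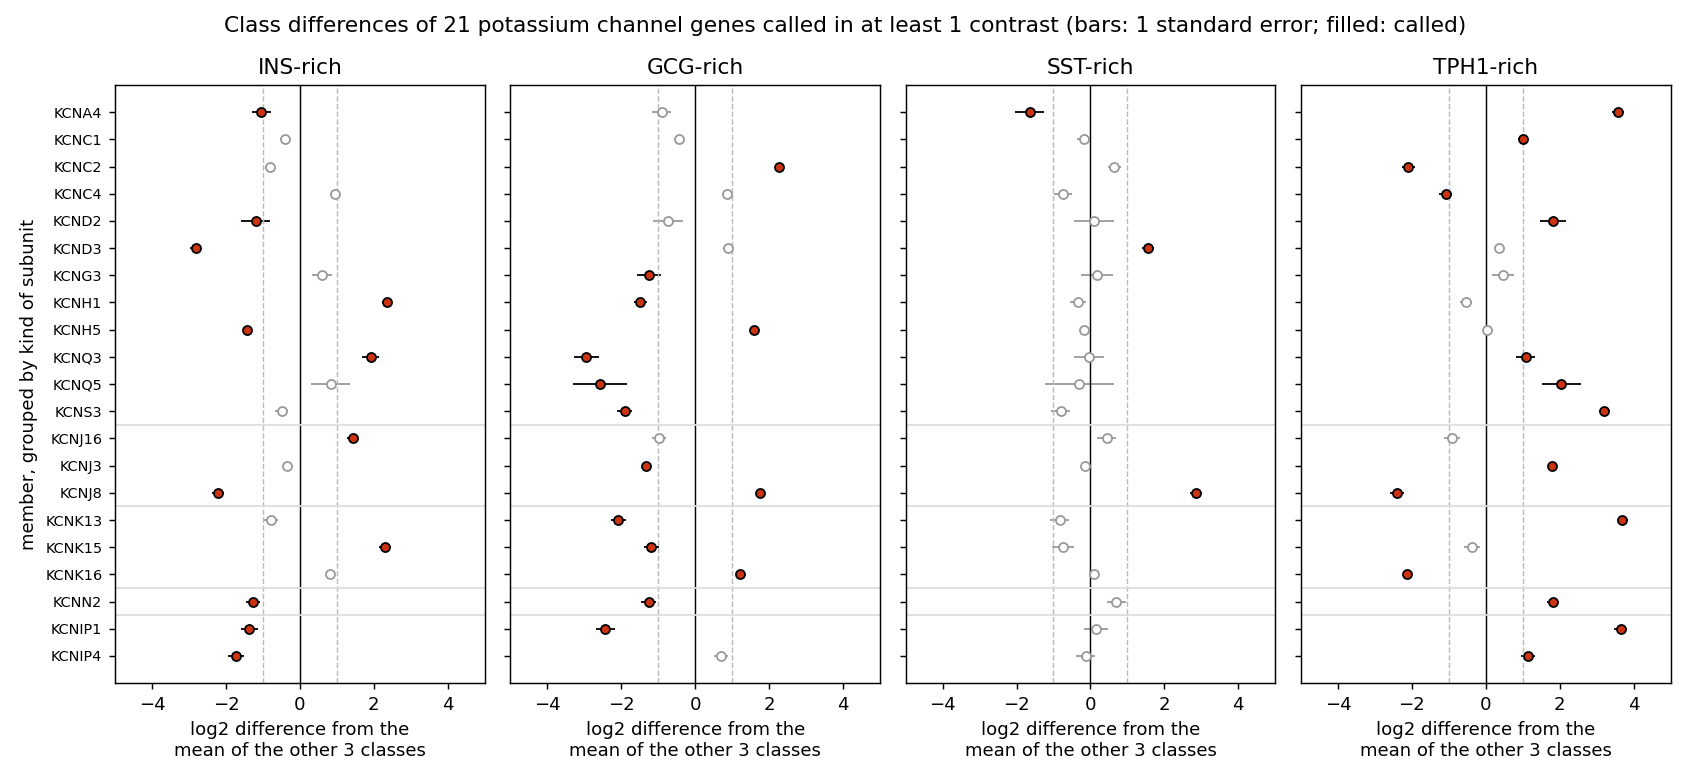
Log2 difference of each of the 21 members called in at least 1 contrast (rows, grouped as voltage-gated, inward rectifier, two-pore, calcium- or sodium-activated and accessory) from the mean of the other 3 classes, in 4 panels. Bars are 1 standard error, dashed lines mark 2-fold and filled points are called genes: 12 in INS-rich, 14 in GCG-rich, 3 in SST-rich and 15 in TPH1-rich cells.

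Some calls depended on how cells were classed. With clusters in place of the single-gene limits, 9 of the 14 calls in GCG-rich cells were lost: those of KCNJ3, KCNK13, KCNK15, KCNN2 and KCNG3 given above, KCNIP1 (-0.96), KCNS3 (-0.49), KCNH1 (-0.94) and KCNK16 (0.999). The GCG-rich calls of KCNC2, KCNJ8, KCNH5, KCNQ3 and KCNQ5 were made with both. In TPH1-rich cells 4 of the 15 calls were lost with clusters, with differences of 0.64 for KCNQ5, 0.97 for KCNQ3, 0.88 for KCNIP4 and -0.92 for KCNC4, and in INS-rich cells 1 of 12, that of KCNJ8. Keeping cells above several limits left KCNK16 and KCNH1 at 0.995 and -0.995 in GCG-rich cells. Without the unsorted library the INS-rich differences of KCNN2 (-0.92) and KCNIP1 (-0.998) and the TPH1-rich difference of KCNC4 (-0.985) were also under 2-fold, and without the negative library those of KCNC4 and KCNQ3 were -0.91 and 0.92. Without the positive library the TPH1-rich difference of KCNIP4 was 0.94.

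The class with the highest level was the same in all 3 libraries for 29 of 41 members (70.7%), against 44.5% of all genes tested. It was the TPH1-rich class for 13 members (31.7%, against 22.7% of all genes), the GCG-rich for 8 (19.5% against 8.09%) and the INS- and SST-rich for 4 each (9.76% against 5.54% and 8.14%). Genes with a span of at least 100 kb held more of the UMIs in TPH1-rich cells than in the other classes of the same library. Their TPH1-rich shares were 41.7%, 30.4% and 37.0% in the positive, negative and unsorted sums. They held 27.6% to 28.8% in INS-rich, 23.2% to 29.2% in GCG-rich and 24.8% to 31.3% in SST-rich sums. The share also varied by library, and the positive SST-rich sum (31.3%) lay above the negative TPH1-rich one. Of 23 tested members with such a span 10 were called higher in TPH1-rich cells, and 1 of the 18 shorter ones. Among all genes tested these shares were 10.9% and 2.07%. KCNA4, with a span of 7.28 kb, was the short member called there. The part of gene span in the TPH1-rich calls was not tested.

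Genes of other proteins in the same complexes or in the same firing were counted for comparison. Of 15 listed partner genes 9 were tested, and at most 1 was called in either direction in a class. The shares of all genes were 1.24% to 4.29% by class and direction. Besides ABCC9, the call list held ADAM23, an LGI receptor, which was higher in TPH1-rich (1.26 ± 0.09) and lower in GCG-rich cells (-1.29 ± 0.10). DPP6 and DPP10, which bind KCND channels, were not called. Of 27 listed calcium, sodium and HCN channel and sodium pump genes 24 were tested. In TPH1-rich cells 3 were higher, the sodium channels SCN2A (1.34 ± 0.11), SCN3A (1.16 ± 0.06) and SCN8A (1.03 ± 0.08), and none was lower. Of all genes 4.29% were higher there and 3.68% lower. In GCG-rich cells 5 were lower, CACNA1E, HCN4, SCN2A and SCN3A among them, and none was higher, against 4.01% and 2.77% of all genes. In INS-rich cells 3 were higher, the calcium channel genes CACNA1E (2.0 ± 0.14) and CACNA2D3 (2.16 ± 0.10) among them, and ATP1B2 was lower. Of all genes 2.34% were higher there and 2.54% lower. In SST-rich cells none was called, against 3.33% of all genes.

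Levels were then compared between the libraries. With 1 library per sorting state there is no test; members were listed at 2-fold after 10 CPM was added to both sides, a rule of size, and ratios carry 95% exact intervals for counting error only. In INS-rich cells no member passed in any pair of libraries, and of all genes 0.0405% did for positive over negative, 0.0162% for positive over unsorted and 0.0243% for negative over unsorted. The widest log2 ratios of positive to negative were those of KCNQ5 (-0.46), KCNQ3 (-0.45) and KCNS3 (-0.43). For KCNQ5 the sign turned with the limits 2 times as high (0.11). In the negative library 1 cell held 91 of its 120 UMIs, and without the 5 highest cells of each sum the positive level was above the negative, at 2.23 against 0.472 CPM. In GCG-rich cells no member passed either, and of all genes 0.0649%, 0.0162% and 0.0324% did for the same 3 pairs. The widest there were KCNB2 (0.66), KCNS3 (-0.65) and KCNIP4 (0.64). KCNB2 stood at 884.1 against 556.1 CPM, a ratio of 1.59 (1.55 to 1.63). Long genes as a whole moved with it: in GCG-rich cells the median log2 ratio was 0.23 over all genes of at least 100 kb and -0.06 over the others. Its part in the KCNB2 ratio was not tested.

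In TPH1-rich cells 2 of 41 members passed for positive over negative, KCNQ5 higher and KCND2 lower, against 1.26% of all genes. KCND2 stood at 6.32, 35.7 and 23.4 CPM, a ratio of 0.177 (0.107 to 0.276) for positive over negative. Its 20 UMIs in the positive library came from 10 of 86 cells, and in the negative library 5 of 399 cells held 41.1% of its 508 UMIs. Without the 5 highest cells the 3 levels were 1.67, 21.3 and 16.7 CPM, in the same order. The positive TPH1-rich sum also stood apart in markers and long genes: INS was at 9168, 6049 and 5693 CPM, MKI67 at 20.5, 2.88 and 0.80, and the enterochromaffin factor FEV at 435.4, 961.5 and 772.5. The median log2 ratio of positive to negative was 0.35 over all genes of at least 100 kb and -0.11 over the others. The part of these in the KCND2 and KCNQ5 ratios was not tested. KCNQ5, at 34.4, 5.20 and 4.38 CPM, was the gene whose UMIs came almost wholly from 5 cells. Against the unsorted library both genes also passed, KCNQ5 with a log2 ratio of 1.63 and KCND2 of -1.03, against 0.292% of all genes. No member passed for negative over unsorted, where 0.0567% of all genes did.

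SST-rich cells were few, 41, 93 and 78 by library. No member passed between the sorted libraries (0.657% of all genes did), and KCNB2 (0.93), KCND2 (0.84) and KCNG3 (0.83) were the widest. The KCNG3 ratio rested on 17 against 4 UMIs, and 1 cell held 9 of the 17. For KCND2 all 33 UMIs of the positive library came from 5 cells, and the sign turned without the deepest 10% of cells (-0.10), with each cell thinned to 10000 UMIs (-0.23) and with cells above several limits kept (-0.06). No member passed for negative over unsorted (0.203% of all genes). KCNIP4 was lower in the positive library than in unsorted cells, at 15.5 against 48.0 CPM (0.422% of all genes passed), and 5 of 78 unsorted cells held 73.1% of its UMIs there.

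Over all kept cells, KCNH1 stood at 57.7, 22.3 and 35.8 CPM, highest in the positive library. The ratio of positive to negative was 2.58 (2.46 to 2.72), and KCNH1 was the 1 member past 2-fold there, against 0.649% of all genes. Within INS-rich cells it stood at 67.0, 63.1 and 62.5 CPM. INS-rich cells made up 59.0%, 15.4% and 27.7% of kept cells in the same order. KCNK13 ran the other way, at 17.1, 43.0 and 44.7 CPM over all kept cells, and passed 2-fold for positive over unsorted (0.162% of all genes did). No member passed for negative over unsorted (0.00811% of all genes). TPH1-rich cells made up 3.59%, 20.2% and 17.4% of kept cells in that order, and within them KCNK13 stood at 159, 139 and 194 CPM.

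**Figure D4:**
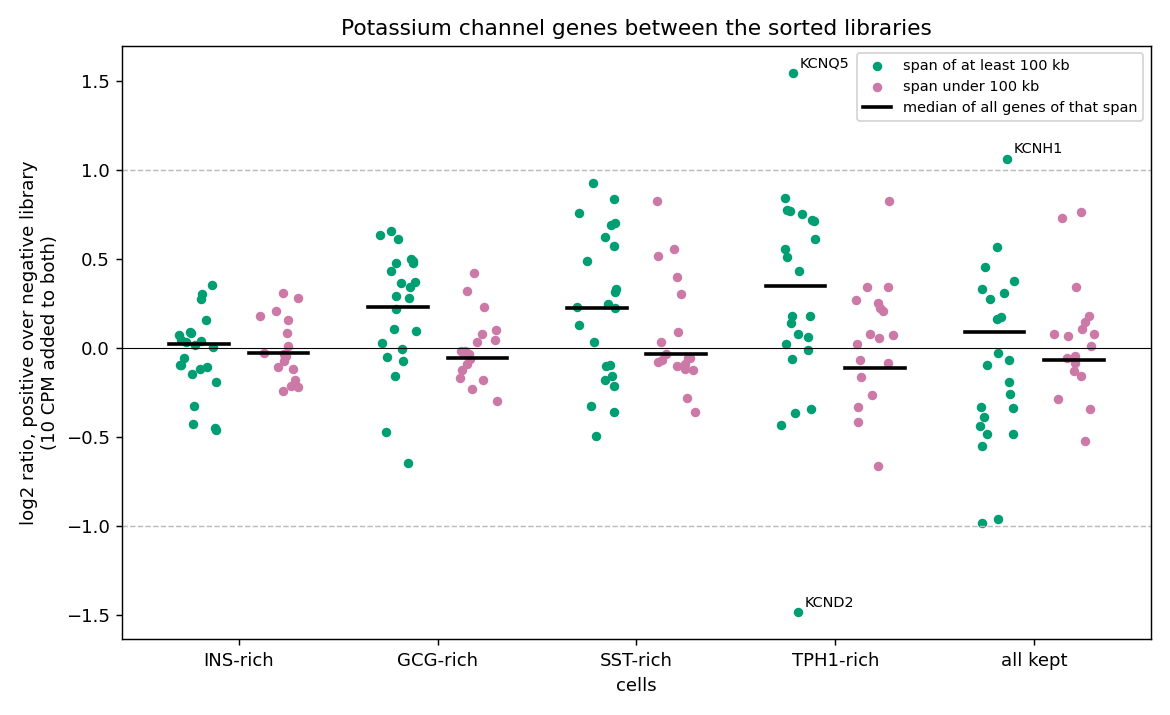
Log2 ratio of the positive to the negative library after adding 10 CPM (vertical axis), for the 41 tested members within each class and over all kept cells (horizontal axis). Colour gives the gene's span, black lines are medians over all tested genes of that span, dashed lines mark 2-fold, and members past it (KCNQ5, KCND2 and KCNH1) are named.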

How the data were processed

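The deposited tables hold the authors' UMI counts for each gene and cell barcode, made with Cell Ranger 7.1.0 on GRCh38, per the submitters' processing notes. Members and gene lists were chosen with earlier results of these data known. Class limits were set from histograms of INS, GCG, SST and TPH1 alone. Because cells of a library are not replicates, counts were summed over each class of a library and fitted with edgeR 4.0.16 (R 4.3.3), TMM scaling and library as a block, over genes with a mean of at least 5 CPM. INS, GCG, SST and TPH1 stayed out of the counts. The text names, for each class contrast, up to 6 called members in each direction, and between libraries up to 5 past 2-fold or the 3 widest. Other called members are given with their values as well. Results for some genes are not reported here. The test was tried on simulated data: 98.97% of 97 genes changed 3-fold and 100% of 97 changed 8-fold were called, with 0% of unchanged genes, among 12111 tested. The simulated sums had the same dispersion for every gene, no library effect and no UMIs gathered in few cells. These rates therefore need not hold for the real sums. No doublet caller was run; cells above several limits were left out. Positions are from GENCODE 29 (97 of 97 members matched by identifier), and promoter windows from RefSeq. Python 3.11.15, scanpy 1.11.5, scipy 1.17.1 and DESeq2 1.42.0 (an alternative) were used. Alternatives were other cell classes and filters, scalings, thinning, added CPM and leaving out each library. Keeping cells above several limits was added after seeing the data.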

Additional observations from a re-analysis of the deposited data

Results flagged for a closer look

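KCND2 differed in opposite directions between the sorted libraries in 2 classes. The log2 ratio of positive to negative after adding 10 CPM was 0.84 in SST-rich cells (19.0 against 6.21 CPM) and -1.49 in TPH1-rich cells (6.32 against 35.7 CPM). With 1 library per sorting state, the difference between these ratios was not tested. In SST-rich cells of the positive library all 33 UMIs came from 5 of 41 cells, and without the 5 highest cells the levels were 0 and 2.74 CPM. The sign of the SST-rich ratio also turned under 3 alternatives: -0.10 without the deepest 10% of cells, -0.23 with each cell thinned to 10000 UMIs and -0.06 with cells above several limits kept.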

How the results depend on the processing

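Of the recomputed differences of members called in a class, 570 kept their direction and their call, 46 kept the direction without the call and none turned. Of the recomputed ratios between libraries of members named there, 76 moved by no more than their counting interval and 41 by more. The INS-rich count of called members lay between 10 and 18 under all alternatives. The GCG-rich count of 14 was 6 with clusters in place of limits (5 of them shared) and 24 with no filter on low genes, and the TPH1-rich count of 15 was 24 without that filter. Without the filter every gene with a UMI in the 12 sums was tested, so more members than the 41 could be called. The SST-rich count of 3 was 12 with clusters, 6 without the deepest 10% of cells, 10 with no filter and 7 with each cell thinned to 10000 UMIs. Leaving out 1 library gave 10 to 14 calls in INS-rich, 15 to 16 in GCG-rich, 3 to 5 in SST-rich (5 without the positive and 5 without the unsorted library) and 12 to 16 in TPH1-rich cells. Without the replicate block, which pairs the classes of 1 library, the counts were the same 12, 14, 3 and 15, with all calls shared. DESeq2 gave 11, 15, 3 and 14 calls. No share of all genes is given for these alternatives, so the counts do not set the members apart from other genes.

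Between libraries, the number of members past 2-fold moved with the added CPM, since a smaller addition widens the ratio of any low gene. No share of all genes is given for these settings, so the counts are not a result about the members. With 1 CPM added it was 1 and 1 in INS-rich cells (positive over negative, negative over unsorted), 4 and 1 in GCG-rich (positive over negative, positive over unsorted), 5, 7 and 5 in SST-rich (all 3 pairs), 7 and 4 in TPH1-rich and 8 and 4 over all kept cells (positive over each other library). With 50 CPM added it was 0 in TPH1-rich cells and over all kept cells for both pairs, and 0 for positive over unsorted in SST-rich cells. In SST-rich cells, positive over negative, it was 2 with cells weighted equally, 3 with clusters, 1 without the deepest cells and 3 thinned. For positive over unsorted it was 0 with cells weighted equally, with limits 2 times as high, thinned or with cells above several limits kept, and negative over unsorted gave 1 when thinned. In TPH1-rich cells, positive over unsorted, it was 0 with clusters, and 1 with a looser cell filter or with cells above several limits kept. Over all kept cells, positive over negative, it was 2 with cells weighted equally or the looser filter and 3 without the deepest cells or thinned. Positive over unsorted gave 0 with median-of-ratios scaling and 2 with cells weighted equally or thinned. The cause was not tested.

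Limits are the 3 libraries without repeats, from 1 line, the small SST-rich sums (1736421 UMIs in the positive library) and members whose UMIs sit in few cells.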

Other observations

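Cells above no limit held members of several classes. In them KCNH1 stood at 94.0, 36.7 and 50.5 CPM (positive, negative, unsorted), above the INS-rich level in the positive library alone. KCNB2 stood at 1646, 1030 and 1293 CPM there, and genes of at least 100 kb held 45.1%, 35.0% and 38.9% of UMIs. KCNC2 stood at 26.2, 51 and 43.2 CPM in these cells, below its GCG-rich level in the positive and unsorted libraries and equal to it in the negative one. In cells above several limits KCNK16 stood at 189, 203 and 191 CPM and KCNJ8 at 6.38, 8.43 and 7.45 CPM, between its INS- and GCG-rich levels. No test was made on these cells.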
